A study of Mus musculus with 6 samples.

Results

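The syndecans (Sdc1 to Sdc4) and glypicans (Gpc1 to Gpc6) are the cell-surface heparan sulfate proteoglycans of the mouse, and their RNA was measured here in mouse corneas, 12 months after injury by a blast in the open field (OFBI) or without it (Naive). The members were taken by gene symbol, and all 10 were listed among the 22007 symbols of the count tables. All mice were male and of the strain C57BL/6J, and both groups carried the same 12-month time label. The OFBI group had been awake during 1 blast from 350 g of Composition C-4 set off 3 m away, and the Naive group is described in the labels by that word alone. Each group had 3 libraries, and for each of them several corneas were combined. The sources used here do not give their number or say whether the pools came from separate animals in separate rounds, so p-values measure the spread between these pools. Setting OFBI against Naive asks which of these genes differed, and which of the genes that build, trim, shed or bind their products.

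Both families carry heparan sulfate, a sulfated sugar chain that binds growth factors, chemokines and matrix proteins, on a core protein at the cell surface. Syndecans span the membrane and end in a short cytoplasmic tail, while glypicans are held by a lipid (GPI) anchor. In the corneal epithelium syndecan-1 is known as the main cell-surface proteoglycan and takes part in wound closure, and syndecan-4 is known from focal adhesions. Proteases can cut the syndecan ectodomain free (shedding), and Notum was once proposed to cut the glypican anchor, which is not established.

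A part that the 4 syndecans share in sequence is the tail that enters the cell, whose last residues bind PDZ-domain proteins such as syntenin, the product of Sdcbp. Its coding sequence is shown because Sdc4 and Sdc3 rose and Sdcbp fell in the comparison below. The last 60 coding bases before the stop codon, from the GENCODE M21 transcripts (GRCm38), are given with the last 4 codons, which encode the PDZ-binding end, in capitals.
Sdc1: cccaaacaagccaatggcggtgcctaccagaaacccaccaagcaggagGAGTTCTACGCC
Sdc2: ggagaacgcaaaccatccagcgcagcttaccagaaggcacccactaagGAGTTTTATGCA
Sdc3: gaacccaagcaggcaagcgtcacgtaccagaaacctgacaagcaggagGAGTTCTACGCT
Sdc4: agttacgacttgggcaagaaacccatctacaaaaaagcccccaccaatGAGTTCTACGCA
Position by position, Sdc1 and Sdc3 matched at 37 of these 60 bases, Sdc2 and Sdc4 at 30, and the other pairs at 21 to 25. No gaps were allowed, so shared stretches that are shifted against each other do not count as matches. Over the last 12 bases the pairs matched at 9 to 11. The whole coding sequences encode 311 residues for Sdc1, 202 for Sdc2, 442 for Sdc3 and 198 for Sdc4. Glypicans do not cross the membrane and have no such tail.

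The depth of the libraries followed the groups, with 41971752 to 47809779 estimated counts in the Naive and 1173472 to 3410476 in the OFBI libraries, so that depth and group cannot be told apart. Pairs of OFBI libraries correlated at 0.758 to 0.846 in log2 CPM, against 0.982 to 0.988 for Naive pairs. Of 12 corneal epithelium markers, Krt12, Krt5, Krt14 and Krt15 were called higher and Cdh1 lower after OFBI, and the list summed to 33765 to 34423 CPM in Naive and 63295 to 81307 CPM in OFBI libraries. The stroma list of 12 genes summed to 1578 to 2089 and 4848 to 6717 CPM, mostly from Col1a1 and Col1a2. In it Col1a1, Col1a2 and Col5a1 were called higher and Dcn and Ptgds lower, and its median log2 change was -0.63. The keratocyte genes Kera and Lum stood at only 10.8 and 17.3 CPM in Naive and 2.13 and 9.70 CPM in OFBI corneas. Among 8 endothelium markers Slc4a11, Col8a1 and Car3 were called lower and none higher (by an unadjusted edgeR p below 0.05, 4 of 8 differed). All 6 tested T cell genes (of 7 in the count tables) and all 4 tested hepatocyte genes (of 10) were called higher. Their lists summed to 31.1 to 235 and 133 to 937 CPM in OFBI against 4.70 to 6.60 and 19.3 to 29.7 CPM in Naive libraries. Genes very low in Naive corneas, such as Mat1a (0, 4 and 8 counts), passed the filter on low counts only through the OFBI libraries. The direction of such genes was fixed in advance, so that all tested genes rose is no separate support where it rests on them. Others were not as low, such as Ttr (896, 1000 and 1076 counts) and Cd2 (55, 55 and 74) in Naive replicates 1, 2 and 3. Conjunctiva genes Krt13 and Krt4 were called higher. The goblet cell genes Muc5ac, Muc5b, Tff1 and Agr2 were at 0 in every OFBI library, but their Naive levels were also below the OFBI limit. Of 10 muscle genes 4 were called higher and 1 lower, and of 7 lens genes 2 higher. These marker counts stand beside 8.41% of all tested genes called higher and 10.4% called lower. The part of these cell types and of depth in the values below was not tested, and in whole tissue fewer cells of a type and less RNA per cell cannot be told apart.

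In Naive corneas 2 syndecans stood far above the other members. Levels are compared between genes as TMM-scaled CPM (counts relative to library size) per kb of exon. Sdc1 had 405 ± 42.7 and Sdc4 358 ± 2.27 CPM per kb (SD, n = 3), ranks 64 and 78 of the 16557 genes detected in Naive corneas and matched to a length. Then came Gpc3 with 52.4 ± 3.16, Gpc1 with 28.3 ± 1.57 and Gpc4 with 18.6 ± 0.96 CPM per kb (SD, n = 3). Sdc2 (5.82 ± 1.42), Sdc3 (4.78 ± 0.26) and Gpc2 (4.16 ± 1.29) were close together, and Gpc6 had 1.17 ± 0.19 CPM per kb (SD, n = 3). From Gpc3 to Gpc4 the libraries of neighbours in this order did not overlap, and neither did those of Sdc1 and Sdc4 with each other or with Gpc3. Sdc2, Sdc3 and Gpc2 overlapped. Gpc5 was at 0 in every library except for 5 counts in Naive replicate 2, under the 12 counts (3 fragments at about 4 counts each) that a count of 0 allows, so no difference was detectable. The order was the same with the length of the longest transcript in place of the exon length.

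**Figure D1:**
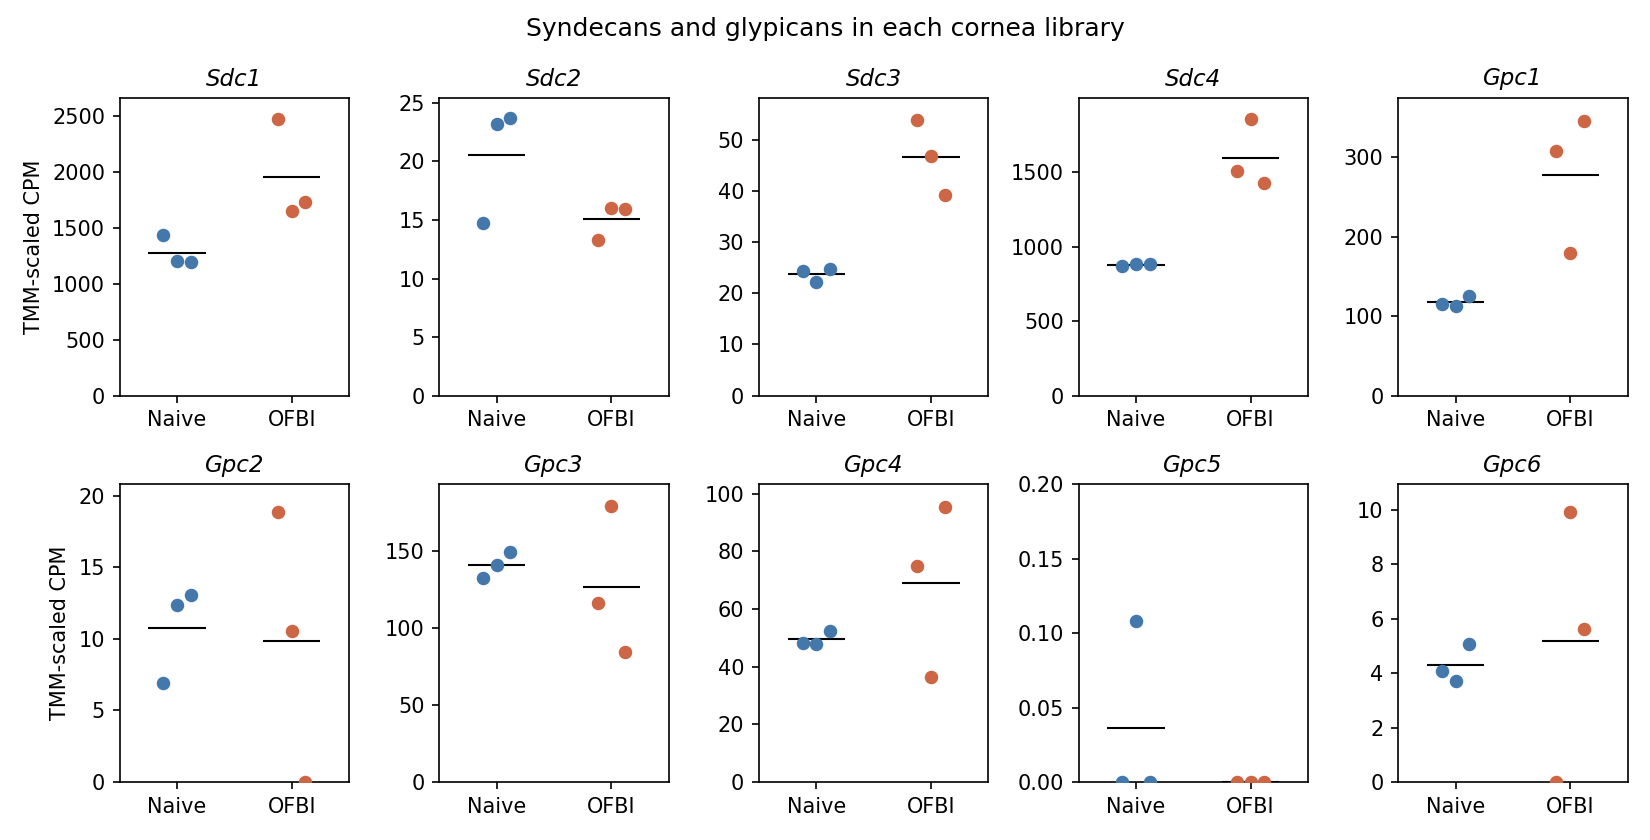
TMM-scaled CPM of each of the 10 genes (vertical axes from 0, each with its own range) in the 3 Naive (blue) and 3 OFBI (orange) libraries; points are libraries and the lines are group means. All OFBI libraries lie above all Naive libraries for Sdc1, Sdc3, Sdc4 and Gpc1, and the groups overlap for the other 6 genes.

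After OFBI, 3 of the 9 members tested were higher than in Naive corneas, the syndecans Sdc4 and Sdc3 and the glypican Gpc1, by 1.82 to 2.35 times in mean CPM, and none was called lower. Over all 13941 genes tested, 8.41% were called higher and 10.4% lower, 18.8% in all, by the quasi-likelihood test of edgeR at a Benjamini-Hochberg adjusted p below 0.05. Scaling by library size alone gave 6.21% and 14.6%, moved the median log2 change over all genes from -0.20 to -0.40, and again called 3 members higher. Of the members, 4 had an unadjusted edgeR p below 0.05, all higher. Of all 13941 genes, 2011 were higher at that level, and 32.9% passed it in either direction. DESeq2 and limma-voom each called 4 members higher and 0 lower, where DESeq2 called 13.3% of all genes higher and 13.1% lower and limma-voom 7.31% and 8.95%. With the replicate number as a block 2 members were called higher, against 3.87% of all genes higher and 1.81% lower. When Naive counts were thinned to match OFBI replicate 1 in depth, 4 were called (9.14% of all genes higher, 4.84% lower), with all libraries thinned to the smallest 3 (9.47% and 4.45%), and with counts divided by 4 there were 4 (12.6% and 10.4%). The libraries of the groups did not overlap for 4 members, all with OFBI above, where 16.4% of all tested genes had OFBI above and 29.9% had OFBI below, 46.4% in all. The median log2 change of the 9 members was 0.46. Gpc5 did not reach the filter on low counts. Leaving out any Naive library left no member called by edgeR, and in those fits at most 97 genes of all were called higher.

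Sdc4, which encodes syndecan-4 (chromosome 2, 164424247 to 164443887, minus strand, GRCm38), had 874, 884 and 883 CPM in Naive replicates 1, 2 and 3 and 1512, 1855 and 1428 CPM in OFBI replicates 1, 2 and 3. The lowest OFBI library lay well above all Naive libraries, which differed little from each other. The log2 change was 0.86 (SE 0.13, adjusted p = 0.0132 by edgeR). It stayed between 0.66 and 0.97 over 31 alternatives, and the adjusted p without Naive replicate 1, 2 or 3 was 0.0612, 0.0753 and 0.0679 by edgeR.

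Sdc1, the syndecan-1 gene (chromosome 12, 8771323 to 8793715, plus strand), had 1434, 1204 and 1197 CPM in the Naive and 2474, 1652 and 1735 CPM in the OFBI libraries. The groups did not overlap, but OFBI replicate 1 stood apart from the other OFBI libraries. The log2 change of 0.61 (SE 0.19) did not pass the edgeR test (adjusted p = 0.0601), while DESeq2 and limma-voom gave adjusted p = 0.0113 and 0.0479. Without OFBI replicate 1 it was 0.37, with an edgeR adjusted p of 0.102. Syndecan-1 is also a surface marker of plasma cells. In the list of 10 plasma and B cell genes Jchain, Mzb1, Tnfrsf17, Cd79a and Ms4a1 were at 0 in every OFBI library. Their Naive levels were only 0 to 0.102 times the OFBI limit, so no difference was detectable for them. In OFBI replicates 1, 2 and 3 Cd79b had 5, 0 and 4 counts and Irf4 had 4, 0 and 0. None of the 4 tested genes of the list was called. That list summed to 239 to 249 CPM in Naive and 177 to 257 CPM in OFBI libraries, nearly all of it from Prdm1 and Xbp1.

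Sdc3, which encodes syndecan-3, a form best known from nerve tissue (chromosome 4, 130792537 to 130826319, plus strand), had 24.4, 22.3 and 24.7 CPM in the Naive and 53.8, 46.7 and 39.3 CPM in the OFBI libraries. Each OFBI library was above every Naive library. The log2 change was 0.98 (SE 0.21, adjusted p = 0.0260 by edgeR). The call was lost without OFBI replicate 1 (adjusted p = 0.0602 by edgeR), without Naive replicate 1, 2 or 3 (0.104, 0.141 and 0.110) and with the replicate number as a block (0.129). Among 11 Schwann cell and axon genes none was called higher and Mbp, Erbb3 and Cdh19 were called lower, Cdh19 at a Naive level only 0.446 times the OFBI limit, so that its difference was not detectable. That list summed to 800 to 900 CPM in Naive and 369 to 598 CPM in OFBI libraries. The antisense gene Gm26716 overlaps an exon of Sdc3, and the strand setting of the counting is not given in the sources used here, so reads of the pair may be mixed.

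Sdc2, the syndecan-2 gene of mesenchymal cells (chromosome 15, 32920723 to 33034935, plus strand), had 14.8, 23.2 and 23.7 CPM in the Naive and 13.3, 16.0 and 15.9 CPM in the OFBI libraries. Naive replicate 1 fell among the OFBI libraries. The log2 change of -0.45 (SE 0.32, adjusted p = 0.373 by edgeR) did not pass the test, and it was the sole syndecan with a negative value, in all 31 alternatives.

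Gpc1, which encodes glypican-1, a co-receptor for fibroblast growth factors (chromosome 1, 92831645 to 92860779, plus strand), had 115, 113 and 125 CPM in the Naive and 308, 179 and 345 CPM in the OFBI libraries. OFBI replicate 2 was the lowest of its group and still above all Naive libraries. The log2 change was 1.23 (SE 0.25, adjusted p = 0.0222 by edgeR). Without OFBI replicate 1 it was 1.10 (adjusted p = 0.0509 by edgeR), and without Naive replicate 1, 2 or 3 the adjusted p was 0.0959, 0.103 and 0.0894.

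The neighbouring X-linked genes Gpc3 and Gpc4 did not pass the test. Gpc3, the glypican that restrains Hedgehog signalling and growth (chromosome X, 52272426 to 52613950, minus strand), had 132, 141 and 149 CPM in the Naive and 116, 179 and 84.2 CPM in the OFBI libraries, a log2 change of -0.14 (SE 0.26, adjusted p = 0.754 by edgeR). Its OFBI libraries lay on both sides of the Naive group. Gpc4 (chromosome X, 52053021 to 52165252, minus strand) had 48.1, 47.8 and 52.3 CPM in the Naive and 74.8, 36.5 and 95.4 CPM in the OFBI libraries, a log2 change of 0.46 (SE 0.33, adjusted p = 0.384 by edgeR). In OFBI replicate 2 Gpc3 was at its highest and Gpc4 at its lowest, and Gpc1 was at its lowest of the OFBI group. Without that library Gpc4 passed the edgeR test with a log2 change of 0.73 (adjusted p = 0.0388).

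Gpc2 and Gpc6 rested on few counts in the OFBI libraries and varied widely between them. Gpc2, a glypican of developing neurons (chromosome 5, 138273655 to 138280005, minus strand), had 351, 573 and 591 counts in Naive libraries against 61, 33 and 0 in OFBI libraries, and its log2 change was -0.04 (SE 0.88, adjusted p = 0.981 by edgeR). It shares exon sequence on the same strand with the gene model Gm43720, so its counts are uncertain. Gpc6 (chromosome 14, 116925315 to 117976544, plus strand) had 206, 172 and 230 counts in Naive libraries against 0, 31 and 6 in OFBI libraries, with a log2 change of 0.26 (SE 1.10, adjusted p = 0.894 by edgeR). The limit of 12 counts amounts to 3.71 to 11.2 CPM in a single OFBI library and to 0.237 to 0.264 CPM in a Naive library, and the Naive levels of Gpc2 and Gpc6 were 10.8 and 4.28 CPM. These levels were 6.67 and 2.65 times the limit over the OFBI group, and neither gene differed beyond the spread between OFBI libraries.

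**Figure D2:**
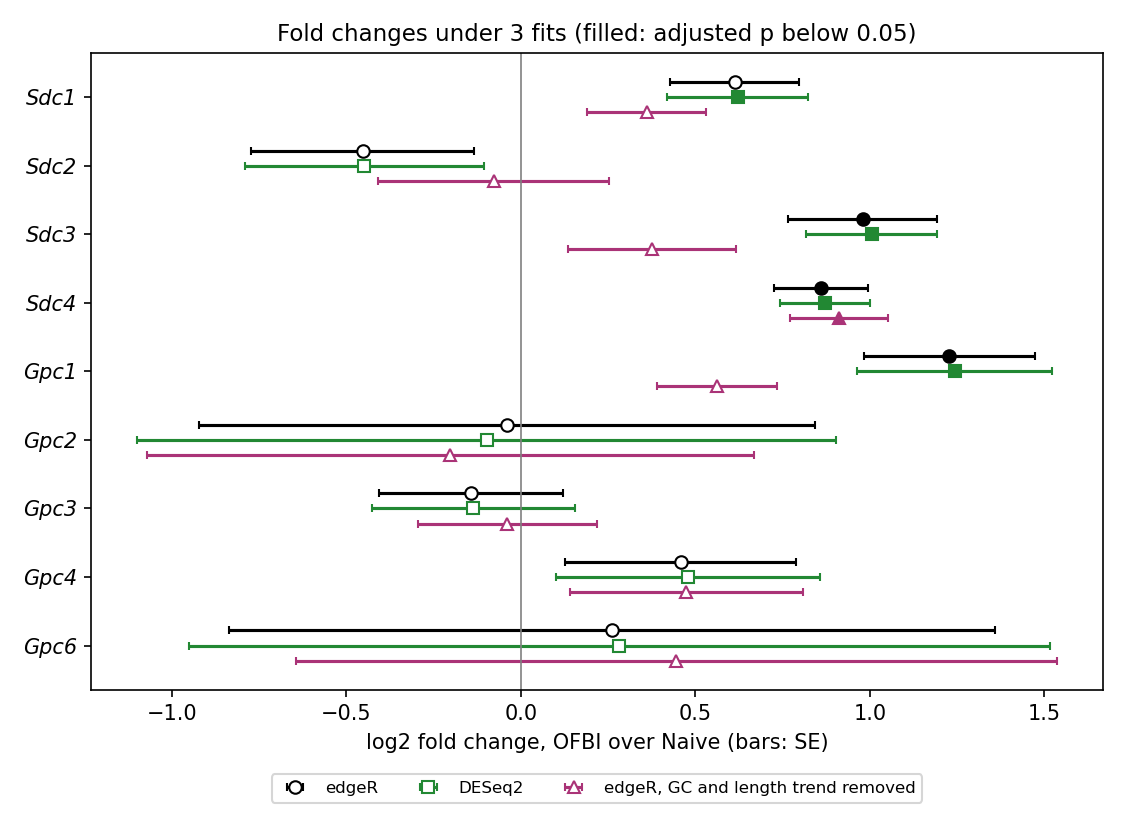
Log2 change of OFBI over Naive (horizontal axis) with its SE for the 9 genes tested, by edgeR (circles), DESeq2 (squares) and edgeR after removal of the GC and length trend (triangles); filled symbols have an adjusted p below 0.05. Sdc4 is filled in all 3 fits, Sdc3 and Gpc1 in edgeR and DESeq2, and Sdc1 in DESeq2.

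Fold changes moved with the GC content of the transcripts. Among tested genes whose mean was 10 CPM or more, the median log2 change went from -0.40 in the lowest of 5 equal bins of GC content (31.9% to 44.3%) to 0.41 in the highest (55.9% to 74.7%). Gpc1 (59.1%) and Sdc3 (58.7%) lay in the highest bin, Sdc1 (55.2%) in the next, Sdc4 (49.3%) in the middle and Sdc2 (41.6%) in the lowest. With a GC and length trend removed from each library, Sdc4 was the sole member called, with a log2 change of 0.91 (SE 0.14, adjusted p = 0.0186 by edgeR). That of Gpc1 became 0.56 (adjusted p = 0.0692), that of Sdc3 0.38 (0.341), that of Sdc1 0.36 (0.203) and that of Sdc2 -0.08 (0.901), again by edgeR. In this fit 5.74% of all genes were called higher and 9.3% lower.

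The make-up of each family was compared as the share of each member in the family's summed CPM per kb. Sdc1 and Sdc4 together made up nearly all syndecan RNA in both groups. Sdc1 held 52.2% ± 2.80 in Naive and 48.0% ± 7.47 in OFBI corneas, and Sdc4 held 46.4% ± 2.56 and 50.9% ± 7.45 (SD, n = 3), with overlapping groups. In OFBI replicate 2 the share of Sdc4 was 58.4% and that of Sdc1 40.5%, while OFBI replicate 1 had 43.5% and 55.4%. The summed syndecan level was 750 to 819 CPM per kb in Naive and 1143 to 1413 in OFBI libraries.

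Among glypicans, Gpc3 held 49.7% to 50.7% of the family in the Naive libraries and 28.4%, 51.2% and 20.7% in OFBI replicates 1, 2 and 3. The share of Gpc1 was 26.2% to 28% in the Naive libraries and 48.3%, 33.0% and 54.6% in the OFBI libraries. All OFBI shares of Gpc1 thus lay above the Naive range, and Gpc1 exceeded Gpc3 per kb in OFBI replicates 1 and 3 but not in replicate 2. The ratio of Gpc3 to Gpc1 per kb was 1.78 to 1.93 in the Naive libraries and 0.587, 1.55 and 0.379 in the OFBI libraries. Gpc4 held 17.8% ± 0.46 in Naive and 17.6% ± 6.64 in OFBI corneas (SD, n = 3). With 3 libraries against 3, an exact permutation test of such a share cannot give a two-sided p under 0.1, and none is given.

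**Figure D3:**
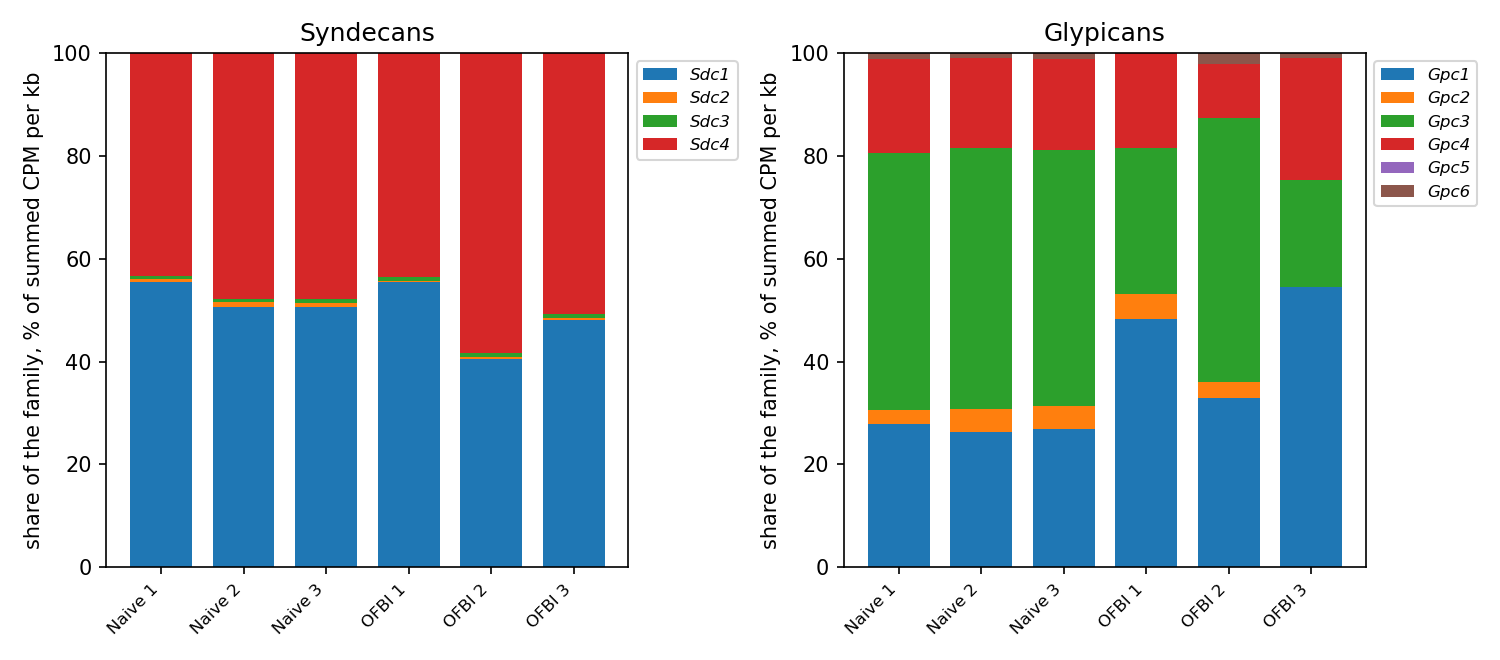
Share of each gene in the summed CPM per kb of its family (vertical axis, percent) in each library, syndecans on the left and glypicans on the right. Sdc1 and Sdc4 fill nearly the whole syndecan bar in every library, and the Gpc1 segment is larger in each OFBI library (33.0% to 54.6%) than in any Naive library (26.2% to 28%).

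The promoters of the 2 syndecans called higher are shown because these genes moved in the same direction. RefSeq sequences (GRCm38.p6) were found for 7 of the 10 members, among them Sdc3 and Sdc4, and none was found for Gpc1, Sdc2 and Gpc6. The 250 bases before the RefSeq start are printed 5′ to 3′ on the gene's strand. For Sdc4 that start lies inside the GENCODE span given above, and so does the printed window. Capitals mark the GC box, GGGCGG on either strand.
Sdc4 (chr2:164443189-164443438, minus strand): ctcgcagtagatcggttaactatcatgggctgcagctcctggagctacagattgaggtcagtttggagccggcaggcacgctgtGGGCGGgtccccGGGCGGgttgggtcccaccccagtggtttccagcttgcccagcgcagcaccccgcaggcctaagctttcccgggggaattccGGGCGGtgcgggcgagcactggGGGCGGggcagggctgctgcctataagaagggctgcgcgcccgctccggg
Sdc3 (chr4:130792287-130792536, plus strand): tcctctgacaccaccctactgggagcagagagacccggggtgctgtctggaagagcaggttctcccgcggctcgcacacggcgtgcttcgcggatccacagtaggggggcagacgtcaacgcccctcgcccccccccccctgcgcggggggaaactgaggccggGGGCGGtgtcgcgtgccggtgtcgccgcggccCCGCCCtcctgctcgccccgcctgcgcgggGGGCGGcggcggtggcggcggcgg
Sdc4 held 4 GC boxes and Sdc3 held 3, without overlap. The other 5 members with a sequence held 1 to 3, and 32.9% of 27025 promoter windows of this length held at least 1. The AP-1 site TGACTCA (in 4.43% of windows) and the E-box CACGTG (6.05%), both searched on both strands, were in none of the 7, and TATAAA (13.0%) was found in Gpc5 only. The GC content was 68% for Sdc4 and 76.4% for Sdc3, against a median of 52% over all windows. It was also high in members not called, with 71.6% for Gpc3, 68.4% for Gpc4, 66.4% for Gpc2 and 66.0% for Sdc1, and was 51.2% for Gpc5.

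The genes of 8 lists of heparan sulfate and partner genes are set beside all genes tested, of which edgeR called 8.41% higher and 10.4% lower, with a median log2 change of -0.20. Of 10 tested genes for the linkage region and for chain polymerisation, Fam20b, the kinase that phosphorylates the linkage xylose, fell and none rose (edgeR, 1 at an unadjusted p below 0.05, DESeq2 and limma-voom also 0 higher). Fam20b had 222, 231 and 228 CPM in the Naive and 137, 152 and 121 CPM in the OFBI libraries, a log2 change of -0.73 (SE 0.14, adjusted p = 0.0195 by edgeR), and -0.43 with the GC and length trend removed (adjusted p = 0.0576). The list had 0% higher and 10% lower, close to the share over all genes, and a median log2 change of -0.03.

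Of 11 tested genes for sulfation and epimerisation, 2 were called lower and none higher by edgeR, with 1 higher at an unadjusted p below 0.05, 1 called higher by DESeq2 and 0 by limma-voom. Ndst1, the N-deacetylase and N-sulfotransferase that starts chain modification, had 245, 249 and 247 CPM in the Naive and 188, 171 and 140 CPM in the OFBI libraries. All OFBI values were below all Naive values, with a log2 change of -0.56 (SE 0.15, adjusted p = 0.0401 by edgeR). Ndst3 was at 0 in every OFBI library, but its Naive level was 0.331 times the OFBI limit, so its difference was not detectable. The 6-O-sulfotransferase gene Hs6st1 was the most abundant of the list per kb and had a log2 change of -0.57 (SE 0.26, adjusted p = 0.182 by edgeR). The list thus had 18.2% called lower, against 10.4% of all genes, with 1 of the 2 calls under the OFBI limit, and its median log2 change was 0.17.

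Among 13 tested genes for editing, cleavage and anchor release, 2 were called lower and none higher (edgeR, with none higher at an unadjusted p below 0.05 or by DESeq2 or limma-voom). Ids, which encodes the lysosomal iduronate sulfatase, had 143, 150 and 161 CPM in the Naive and 77, 73.6 and 37.4 CPM in the OFBI libraries, a log2 change of -1.24 (SE 0.26, adjusted p = 0.0244 by edgeR). Notum, listed here for its proposed release of glypicans, was at 0 in every OFBI library with a Naive level 0.821 times the OFBI limit, so its difference was not detectable. Called lower were 15.4% of the list, against 10.4% of all genes, 1 of the 2 under the OFBI limit, and the median log2 change was -0.26.

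Of 10 tested genes for sheddases and their inhibitors, 3 rose, and Adamts4 was called lower at a Naive level under the OFBI limit. Adam10, a membrane sheddase, had 99.7, 77 and 75.5 CPM in the Naive and 155, 181 and 298 CPM in the OFBI libraries, a log2 change of 1.32 (SE 0.27, adjusted p = 0.0235 by edgeR), and OFBI replicate 3 was the highest. The membrane metalloproteinase gene Mmp15 had a log2 change of 0.79 (SE 0.19, adjusted p = 0.0342 by edgeR), or 0.11 (adjusted p = 0.816) with the GC and length trend removed. Timp2, a metalloproteinase inhibitor, had 142, 127 and 125 CPM in the Naive and 189, 179 and 181 CPM in the OFBI libraries. Its log2 change was 0.48 (SE 0.13, adjusted p = 0.0440 by edgeR), and the call was lost with that trend removed (adjusted p = 0.123) and when scaled by library size alone (0.178). Mmp14, a further syndecan sheddase and the most abundant of the list per kb, had a log2 change of 0.11 (SE 0.42, adjusted p = 0.883 by edgeR). The shares of 30% higher and 10% lower stand beside 8.41% and 10.4% of all genes, and the median log2 change was 0.29.

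Of 17 cytoplasmic partners of syndecans, 2 were higher (11.8%, against 8.41% of all genes) and 3 lower (17.6%, against 10.4%), with a median log2 change of 0.16. Sdcbp, whose product syntenin binds the tail end printed above, had 88.1, 84.1 and 84.7 CPM in the Naive and 26.0, 24.7 and 44.9 CPM in the OFBI libraries. It was lower in all 3 OFBI libraries, with a log2 change of -1.47 (SE 0.26, adjusted p = 0.0165 by edgeR), and of -1.06 with the GC and length trend removed (adjusted p = 0.0621). Arf6, a small GTPase that controls the recycling of syndecans with syntenin, had 257, 299 and 337 CPM in the Naive and 879, 738 and 1273 CPM in the OFBI libraries. Its log2 change was 1.69 (SE 0.23, adjusted p = 0.00979 by edgeR), or 0.88 with that trend removed (adjusted p = 0.0194). Dnm2, which encodes the membrane-cutting GTPase dynamin-2, fell from 227 ± 25.7 to 104 ± 12.9 CPM (SD, n = 3), a log2 change of -1.14 (SE 0.16, adjusted p = 0.0105 by edgeR). The other gene that rose was Rhoa and the other that fell was Pdcd6ip, named after their values were seen. Actn4, an actin crosslinker, was the most abundant per kb and had a log2 change of 0.16 (SE 0.15, adjusted p = 0.496 by edgeR).

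Of 18 tested growth factors and receptors that bind heparan sulfate, 1 rose (5.56%, against 8.41% of all genes) and 3 fell (16.7%, against 10.4%), and the median log2 change was -0.23. Fgfr1, a receptor whose ligand binding needs heparan sulfate, had 43.6, 40.7 and 46.4 CPM in the Naive and 114, 90.0 and 85.1 CPM in the OFBI libraries, a log2 change of 1.15 (SE 0.18, adjusted p = 0.0129 by edgeR). Its ligand gene Fgf1 had 16.8, 13.8 and 14.2 CPM in the Naive and 3.71, 4.80 and 0.935 CPM in the OFBI libraries. These OFBI levels rest on few counts, and the log2 change was -2.12 (SE 0.53, adjusted p = 0.0372 by edgeR). Hbegf, the heparin-binding EGF-like growth factor gene and the most abundant of the list per kb, had 214, 235 and 241 CPM in the Naive and 145, 108 and 82.3 CPM in the OFBI libraries, a log2 change of -1.03 (SE 0.21, adjusted p = 0.0237 by edgeR). The other gene that fell was Met, the receptor of hepatocyte growth factor, named after its values were seen.

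Among 18 tested Wnt and Hedgehog genes linked to glypicans, 4 rose and none was called lower by edgeR or limma-voom, while DESeq2 called 1 lower, and 1 was lower at an unadjusted edgeR p below 0.05. Gas1, which encodes a GPI-anchored co-receptor of Hedgehog and was the most abundant per kb, had 277, 348 and 379 CPM in the Naive and 832, 697 and 1060 CPM in the OFBI libraries, a log2 change of 1.37 (SE 0.20, adjusted p = 0.0109 by edgeR). With the GC and length trend removed it was 0.81 (adjusted p = 0.0275). Fzd1, a Wnt receptor gene, rose from 67.4 ± 4.16 CPM in Naive to 135 ± 12.5 CPM in OFBI corneas (SD, n = 3), with a log2 change of 1.00 (SE 0.15, adjusted p = 0.0114 by edgeR). Smo, the Hedgehog signal transducer, had a log2 change of 1.06 (SE 0.19, adjusted p = 0.0182 by edgeR), or 0.59 with that trend removed (adjusted p = 0.128). The fourth was Ror2, a Wnt5a receptor, named after its values were seen. The ligand gene Shh was at 0 in every library of both groups. Ihh had 4, 0 and 8 counts in the Naive and 0 in the OFBI libraries, and neither was tested. The ligand gene Dhh had 17, 26 and 44 counts in the Naive and 12, 4 and 0 in the OFBI libraries, and was not called (adjusted p = 0.240 by edgeR). The share called higher by edgeR was 22.2%, against 8.41% of all genes, where 10.4% were lower (7.31% and 8.95% by limma-voom). The median log2 change was 0.35, against -0.20 over all genes.

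The list of other carriers of heparan sulfate, some of which bear it only in part, also held Tnxb, whose product is not established as a carrier. With Tnxb counted, it gave 3 genes higher (30%, against 8.41% of all genes) and 1 lower (10%, against 10.4%) of 10 tested. The median log2 change was -0.15. Tnxb, the gene of tenascin-X, had 32.5, 33.2 and 30.3 CPM in the Naive and 75.1, 71.7 and 79.5 CPM in the OFBI libraries, a log2 change of 1.23 (SE 0.16, adjusted p = 0.00979 by edgeR), but of 0.35 with the GC and length trend removed (adjusted p = 0.326). Agrn, the basement membrane proteoglycan agrin, had a log2 change of 0.57 (SE 0.14, adjusted p = 0.0338 by edgeR), or 0.11 with that trend removed (adjusted p = 0.692). Spock1, which encodes testican-1, had 8.73, 8.15 and 8.90 CPM in the Naive libraries and 0 in every OFBI library, and was at least 5.32-fold lower against the limit of 12 counts over the OFBI group (adjusted p = 0.0152 by edgeR). The third gene that rose was Srgn, the proteoglycan of immune cell granules, named after its values were seen, with 4.95, 6.72 and 22.4 CPM in the OFBI libraries. Cd44 was the most abundant of the list per kb and had a log2 change of -0.36 (SE 0.15, adjusted p = 0.150 by edgeR).

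When any of the Naive libraries was left out, 23 of the 26 genes called in these lists could be tested. None was then called by edgeR, and DESeq2 on the same libraries called 17 to 21. In those edgeR fits few genes of all were called, as the closing section gives, so the loss was not particular to these lists.

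**Figure D4:**
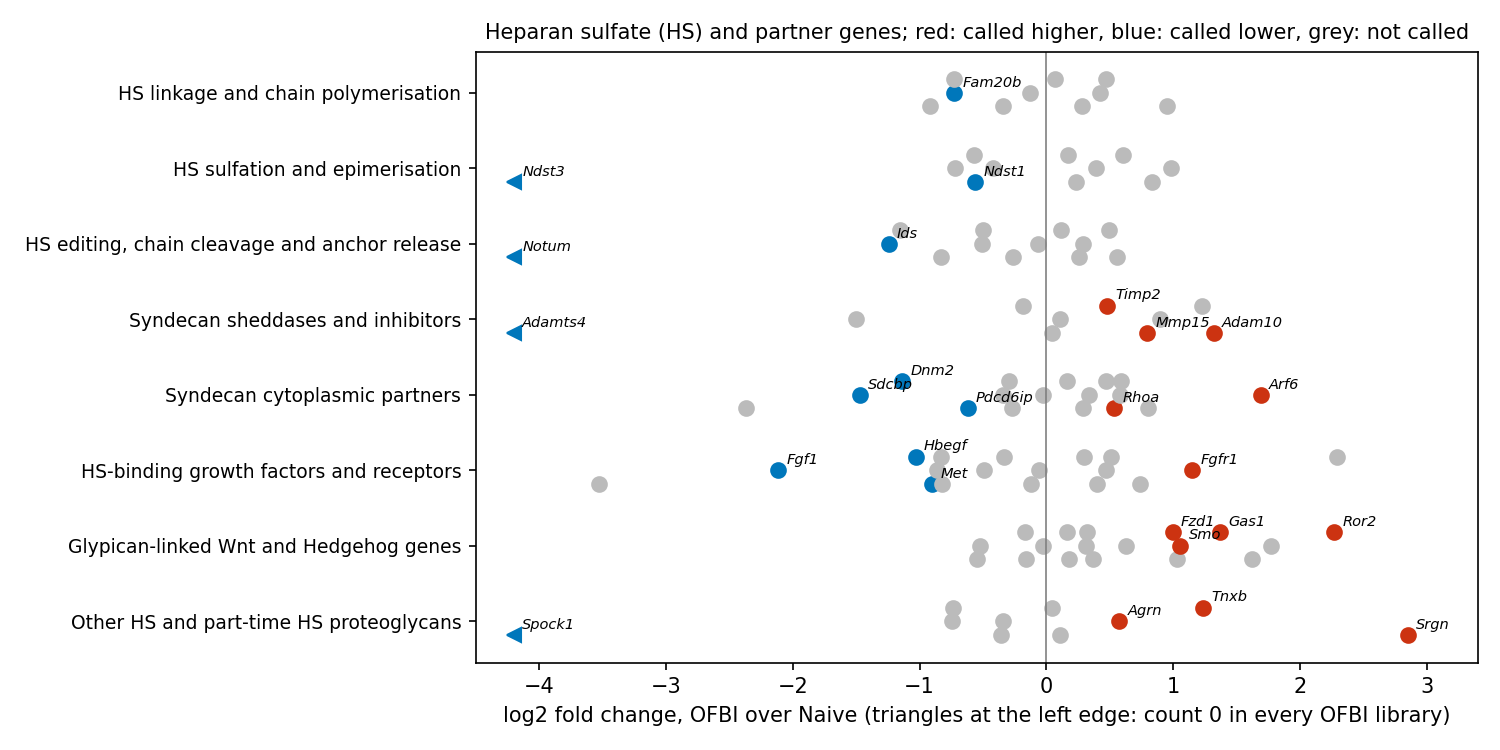
Log2 change of OFBI over Naive (horizontal axis) for each tested gene (point) of the 8 lists of heparan sulfate and partner genes (rows; vertical offsets within a row carry no value), red for called higher, blue for called lower and grey for not called; triangles at the left edge are genes with a count of 0 in every OFBI library, whose fitted value is not a measured fold. The linkage, sulfation and editing rows hold 1 of 10, 2 of 11 and 2 of 13 genes in blue and none in red. Among these blue points Ndst3 and Notum had Naive levels under the OFBI limit. The Wnt and Hedgehog row holds 4 of 18 genes in red and none in blue. Of all genes tested, 8.41% were called higher and 10.4% lower.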

How the data were processed

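The authors deposited 1 table per library of estimated counts per gene, as whole numbers not scaled for depth, and each library came from several corneas combined. Per the labels' protocols, RNeasy columns gave the RNA and a KAPA stranded kit the libraries. HISAT2, StringTie, FastQC, DESeq2 and the build GRCm38 appear in the submitters' processing notes. No annotation release or strand setting is given in the sources used here. Between 39.4% and 50.4% of the values from 1 to 40 were multiples of 4, so about 4 counts may stand for 1 fragment, an inference from the values.

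Rows sharing a symbol were summed (64 rows on 31 symbols), and 26 rows whose names had become dates stayed in the tables under substitute names. The test was that of edgeR 4.0.16 (R 4.3.3): filterByExpr, TMM scaling, a quasi-likelihood fit on group alone, two-sided, and Benjamini-Hochberg adjustment over all 13941 genes tested, at a threshold of 0.05. SEs are the log2 fold change over the root of F. The procedure was tested on simulated data. Exon length is the union of GENCODE M21 basic exons, and coordinates are of whole genes, 1-based. Intervals and limits cover counting error only. No pair of libraries in a group differed by as little as sampling noise (mean chi-square per gene 4.16 to 14.7 after division by 4), so all 6 were kept as samples.

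Alternatives were DESeq2 1.42.0, limma-voom (limma 3.58.1), other scalings and filters, a replicate block, thinned libraries, counts divided by 4, a threshold of 0.01, leaving out each library, and removal of a spline trend (5 degrees of freedom each) of GC content and log length, fitted where the mean was 10 CPM or more. The members, gene lists and tests were chosen with earlier results of these data known. Named genes are all members, in each pathway list the 3 called genes with the smallest p and the tested gene most abundant per kb in Naive corneas, and in each marker list the 2 most abundant. Other genes named were chosen after their values were seen. Some genes that the rule would name are not reported here. Protein sequences were not used here.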

Additional observations from a re-analysis of the deposited data

How the results depend on the processing

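The number of syndecans and glypicans called higher, 3, was 4 with DESeq2, limma-voom, thinned Naive libraries and counts divided by 4, and 3 with the other scalings and filters and with all libraries thinned. It was 1 with the GC and length trend removed, 1 with that trend removed and a replicate block, and 0 at a threshold of 0.01. Leaving out 1 library gave 0 to 4 by edgeR, the 0 coming without Naive replicate 1, 2 or 3 and a 1 without OFBI replicate 1. Leaving out 1 library with DESeq2 or limma-voom, added after the data were seen, gave 1 to 5. With all libraries DESeq2 called 13.3% and limma-voom 7.31% of all genes higher. The shares over all genes are not given for the fits without 1 library by these tools. They are also not given for edgeR without 1 OFBI library or for the trend removed with a replicate block. The member counts of those fits thus cannot be read against all genes. None was called lower in any setting, except 1, Gpc3, without OFBI replicate 2 by DESeq2 (adjusted p = 0.0350), so leaving out 1 library gave 0 to 1. Over 31 alternatives Sdc1, Sdc3, Sdc4 and Gpc1 kept a positive and Sdc2 a negative log2 fold change, while Gpc2, Gpc3, Gpc4 and Gpc6 changed sign in 1 or more. Sdc1 passed in 13 of the 31. Of the 26 calls in the pathway lists, 23 were also made by DESeq2, 21 by limma-voom, 16 with the GC and length trend removed, 10 with the replicate block, 3 with both, and 2 at the threshold of 0.01. Over all genes the counts higher and lower were 1173 and 1446, 1854 and 1821 by DESeq2, 866 and 2038 by library size, 943 and 910 without a filter, 1070 and 566 with the Naive and 918 and 432 with all libraries thinned, 191 and 31 at the threshold of 0.01, and 97 and 9, 0 and 0, and 96 and 8 without Naive replicate 1, 2 and 3. With the replicate block 2 members, Sdc4 and Gpc1, were called higher and 540 genes of all were higher and 253 lower. Deviations of same-numbered libraries correlated at -0.02 to 0.01. With OFBI libraries that agreed poorly with each other, this cannot settle whether the numbers pair the samples, and the labels do not say. The causes of these changes were not tested. The OFBI depth limits genes below about 10 CPM.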
